A study of Mus musculus with 12 samples.

Results

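The change of the wild-type mouse embryo's poly(A) RNA between the zygote and the 2-cell stage was measured in 6 of the 12 libraries of a study of the deadenylase subunit PAN2. The 2-cell group held 3 wild-type (WT) libraries labelled L2C, and the zygote group held 3 WT libraries labelled PN3. The other 6 libraries, 3 L2C and 3 PN3, came from embryos whose mother had lost Pan2 (KO); they entered the fit that estimates the spread and are compared only at the end. RNA was copied by the Smart-seq2 method from oligo(dT) primers, so a level is that of RNA with a tail that could be primed. The labels give no strain, no age of the animals and no number of embryos per library, and the extraction text speaks of oocytes where the design text speaks of zygotes.

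The mouse zygote inherits its RNA from the oocyte, where transcripts are stored with short tails, and transcription is nearly silent until fertilisation. Maternal RNA is then cleared by shortening of the poly(A) tail through CCR4-NOT and PAN2-PAN3, followed by decapping and decay. The embryo's own genome is switched on in a minor wave in the zygote and a major wave in the 2-cell embryo. A short-lived set of genes such as the Zscan4 and Obox families is then transcribed, with many genes of ribosome production.

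The L2C libraries held 17247603, 19323227 and 16866135 counts and the PN3 libraries 28624766, 26106222 and 23928440 counts. The number of genes with a count was 25938, 26166 and 25921 in the L2C libraries, against 22242, 20677 and 21983 in the PN3 libraries. Loci made of ribosomal RNA sequence took 13.8%, 13.9% and 24.0% of the L2C counts, against 4.35%, 34.9% and 5.03% of the PN3 counts, so PN3 replicate 2 and L2C replicate 3 stood apart from their groups. L2C replicates 1 and 2 differed by a chi-square of 3.37 per gene, against 76.6 and 79.7 for each of them with replicate 3. Whether replicates are separate pools of embryos is not stated, so the p-values measure the spread between libraries, which may be technical. Oocyte genes such as Bmp15, Gdf9, Nlrp5 and Dppa3 were present in all 6 libraries. Of the 2-cell markers, Zscan4d had 143, 141 and 58 CPM in the L2C libraries, against 1.56, 0.952 and 2.32 CPM in the PN3 libraries. Levels are given as CPM, counts per 1000000 of a library's adjusted total, and as mean ± SD with n = 3 in each group. The adjusted total is the count over tested genes times the library's TMM scaling factor. These factors were 1.13, 1.12 and 1.15 in the L2C libraries and 0.961, 0.725 and 0.956 in the PN3 libraries. The CPM of a library therefore do not sum to 1000000. Fold changes are L2C over PN3 on the log2 scale, with their standard error (SE). With no added standard RNA named in the labels, all levels are relative to the rest of the library.

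Most genes changed. Of 21160 genes tested, 13040 (61.6%) were called at an edgeR adjusted p under 0.05: 7668 (36.2%) were higher and 5372 (25.4%) lower in L2C than in PN3, and 8120 were not called. The changes were large, with 6382 genes (30.2%) higher by at least 4-fold and 2611 (12.3%) lower by at least 4-fold. They were also uneven: 3264 genes were higher by at least 32-fold, against 222 lower by as much. The 3 libraries of each stage did not overlap for 14874 genes (70.3%). At least 1 CPM at both stages was measured for 11650 genes, in L2C alone for 4495 and in PN3 alone for 1281. There were 1042 genes of at least 1 CPM in L2C with no count in any PN3 library, and 52 genes of at least 1 CPM in PN3 with no count in any L2C library. Abundant zygote RNA mostly fell: of 1982 genes with at least 100 CPM in PN3, 1407 were lower in L2C, 616 of them by at least 4-fold, and 93 were higher. Of 1508 genes with at least 100 CPM in L2C, 711 were higher in L2C and 370 lower. Choosing genes by their level in 1 stage favours those that are higher in that stage. The median fold change over all genes was 0.38 (log2), and the middle 50% of genes lay between -1.22 and 3.21. This median depends on the scaling: it was higher by 0.26 with DESeq2 size factors and by 0.37 with library totals. Of the calls, 58.8% were higher with the scaling used, against 64.7% and 67.8% with those. The median also depends on the genes kept. With only genes of a mean of at least 5 CPM in a group it was -0.02. In that setting 4879 genes were called higher and 4535 lower, so 51.8% of the calls were higher.

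**Figure D1:**
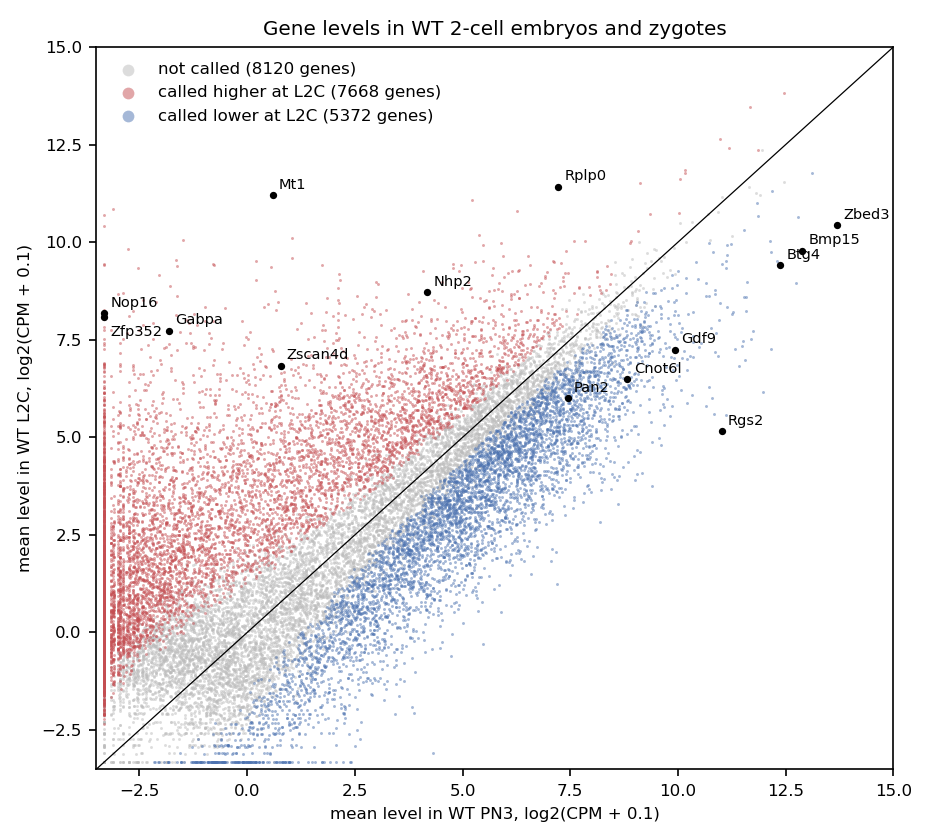
Mean level of each tested gene in the WT L2C libraries (vertical) against the WT PN3 libraries (horizontal), both as log2(CPM + 0.1), n = 3 libraries each. Red points are the 7668 genes called higher in L2C, blue points the 5372 called lower and grey points the 8120 not called; the column of red points at the left edge holds genes with no count in PN3.

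The make-up of the libraries changed with these genes. Outside the ribosomal RNA loci, the 6382 genes that rose by at least 4-fold took 30.2%, 30.2% and 28.2% of the counts in the L2C libraries, against 1.52%, 1.70% and 1.62% in the PN3 libraries. The 2611 genes that fell by at least 4-fold took 6.61% ± 0.18 in L2C, against 37.3% ± 3.34 in PN3. Both classes were chosen by their change between these same libraries, so the separation of their shares follows from that choice. Ribosomal protein genes took 4.41% ± 0.04 of the counts in L2C and 0.478% ± 0.10 in PN3. Mitochondrial mRNAs took 4.70% ± 0.35 in L2C and 1.15% ± 0.29 in PN3. Genes not called took 28.2% ± 1.02 in L2C and 23.3% ± 2.41 in PN3.

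**Figure D2:**
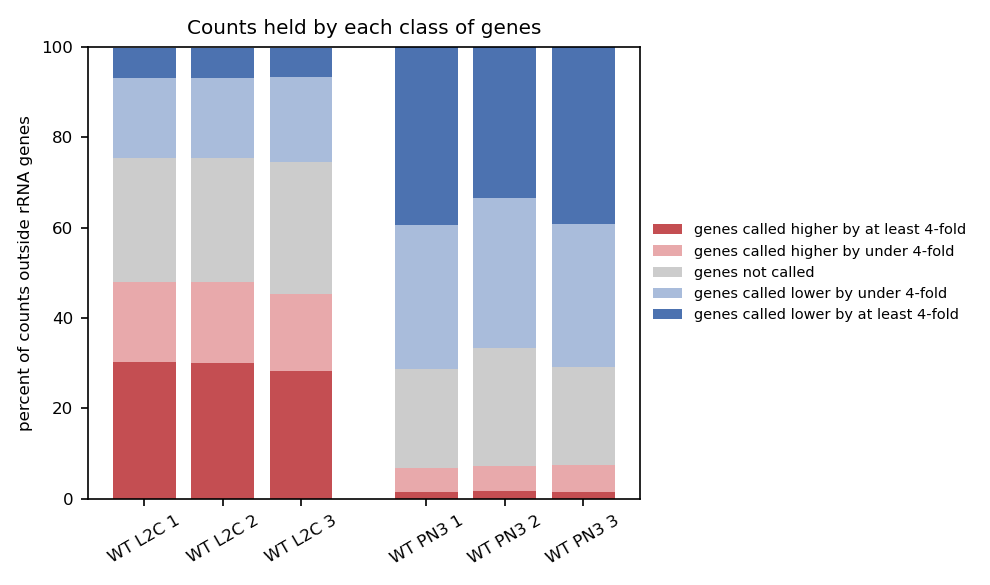
Share of the counts outside ribosomal RNA loci (percent, vertical) by class of gene in each of the 3 WT L2C and 3 WT PN3 libraries. The class that rose by at least 4-fold takes 28.2% to 30.2% of the L2C counts and under 2% of the PN3 counts. The class that fell by at least 4-fold shows the opposite order. Both classes were chosen by their change in these libraries, so this order follows from the choice.

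The genes of highest fold change had no read at all in the zygote. Nop16 (chr13:54584185-54590090, minus strand, 4 exon blocks on mm10), a nucleolar protein of ribosome assembly, had 318, 315 and 243 CPM in the L2C libraries, against no count in the PN3 libraries. With 0 counts in 3 libraries only a bound can be given, taking 3 counts over the PN3 group as the floor. Smart-seq2 reads carry no molecular tags, so such bounds cover counting error only. Nop16 was at least 6763-fold higher in L2C. Zfp352 (chr4:90218820-90225702, plus strand, 2 exon blocks), a zinc finger gene of the 2-cell stage, had 346, 343 and 122 CPM in the L2C libraries, against no count in the PN3 libraries, and was at least 6314-fold higher. Folr1, a folate receptor, had 288, 304 and 213 CPM in the L2C libraries, against no count in the PN3 libraries, and was at least 6225-fold higher. The remaining 9 of the 12 highest folds were also at 0 counts in all 3 PN3 libraries. Bex6 averaged 164 ± 48.3 CPM in L2C, against no count in PN3. The autophagy receptor Calcoco2 averaged 118 ± 12.7 CPM in L2C, against no count in PN3. Tex101, a surface protein of germ cells, averaged 103 ± 18 CPM in L2C, against no count in PN3. The cystatin Cst7 and the immune regulator Tnfaip8l2 had L2C levels of the same order, 80.1 ± 23.7 CPM in L2C against no count in PN3 and 101 ± 24.4 CPM in L2C against no count in PN3. L2C replicate 3, the library rich in ribosomal RNA, had the lowest L2C level of all 8 genes named here; the part of that library in these levels was not tested.

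Promoters of 5 genes that the results turn on are given here as examples of genes that rose (the first 4) and of 1 that fell (Bmp15). They run from 250 bases before to 50 bases after the annotated start, 5′ to 3′ on the gene's strand, from RefSeq on build GRCm38.p6. Capitals mark a searched motif. In Zfp352 (chr4:90218570-90218869, plus strand) it is TAATCC, the other strand's reading of GGATTA, the core bound by OBOX and other bicoid-type homeodomain proteins. In Zscan4d (chr7:11166099-11166398, minus strand) it is TATAAA, the letters of a TATA box, starting 65 bases before the start, and in Bmp15 (chrX:6320675-6320974, minus strand) it is TTTATA, the same letters on the other strand, 155 bases before the start. In Nhp2 (chr11:51619523-51619822, plus strand), which encodes a nucleolar RNA-protein subunit, it is CCGGAAG, the core bound by ETS factors such as GABPA. In Gabpa itself (chr16:84834874-84835173, plus strand) it is CTTCCGG, that core on the other strand.
Zfp352: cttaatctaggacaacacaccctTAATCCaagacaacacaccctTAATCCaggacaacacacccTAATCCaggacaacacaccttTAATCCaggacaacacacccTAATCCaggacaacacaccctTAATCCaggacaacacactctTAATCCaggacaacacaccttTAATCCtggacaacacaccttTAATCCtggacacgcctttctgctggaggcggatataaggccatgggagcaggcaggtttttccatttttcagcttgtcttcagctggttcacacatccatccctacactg
Zscan4d: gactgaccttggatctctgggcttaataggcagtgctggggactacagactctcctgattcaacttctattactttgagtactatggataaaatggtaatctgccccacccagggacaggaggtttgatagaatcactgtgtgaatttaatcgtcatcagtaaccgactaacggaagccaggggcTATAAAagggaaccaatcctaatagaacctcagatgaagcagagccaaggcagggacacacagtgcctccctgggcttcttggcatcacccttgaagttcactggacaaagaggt
Nhp2: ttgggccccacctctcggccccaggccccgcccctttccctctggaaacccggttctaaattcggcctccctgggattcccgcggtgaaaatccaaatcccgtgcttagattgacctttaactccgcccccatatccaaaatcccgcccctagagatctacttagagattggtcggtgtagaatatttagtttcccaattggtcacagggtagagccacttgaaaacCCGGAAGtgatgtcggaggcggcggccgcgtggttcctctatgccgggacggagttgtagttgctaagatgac
Gabpa: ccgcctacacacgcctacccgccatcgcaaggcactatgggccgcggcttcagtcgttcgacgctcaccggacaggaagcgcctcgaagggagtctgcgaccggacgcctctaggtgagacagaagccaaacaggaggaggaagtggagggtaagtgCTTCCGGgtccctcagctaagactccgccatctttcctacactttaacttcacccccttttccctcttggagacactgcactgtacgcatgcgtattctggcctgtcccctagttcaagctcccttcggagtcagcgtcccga
Bmp15: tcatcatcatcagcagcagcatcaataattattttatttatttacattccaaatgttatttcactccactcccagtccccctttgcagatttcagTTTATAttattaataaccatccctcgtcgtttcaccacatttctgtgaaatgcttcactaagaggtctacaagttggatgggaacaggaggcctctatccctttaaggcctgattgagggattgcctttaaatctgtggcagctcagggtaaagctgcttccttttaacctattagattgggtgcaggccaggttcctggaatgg
The Zfp352 promoter is a run of short repeats that holds 9 copies of GGATTA, spaced 20 or 21 bases apart, the first starting 227 bases and the last 61 bases before the gene's start. GGATTA on either strand is in 7.54% of the 4510 promoters of genes that rose by at least 4-fold, 6.48% of the 2269 of genes that fell by at least 4-fold and 6.21% of the 17334 of all tested genes. Repeated copies were rare: at least 3 copies were in 4 promoters of genes that rose by at least 4-fold and in no promoter of genes that fell by as much, among 7 promoters of all tested genes. Of all 32851 promoters in the RefSeq table, 7.06% hold GGATTA and 8 hold at least 3 copies; the next count after Zfp352 is 4, in Gtf2ird1. This count was made after the Zfp352 sequence had been seen. TATAAA on either strand is in 9.80% of the promoters of genes that rose by at least 4-fold, 10.8% of those that fell by at least 4-fold, 8.99% of all tested and 13.6% of all in the table; of the 12 promoters of the Zscan4, Tcstv and Zfp352 list it is in 41.7%. Between 40 and 16 bases before the start, on the gene's strand, it is in 2.11% of promoters of genes that rose by at least 4-fold, 2.07% of those that fell by as much, 1.67% of all tested and 16.7% of that list; neither example above has it there. The median CpG content, observed over expected, was 0.181 in the promoters of that list, against 0.874 in those of ribosomal protein genes and 0.676 over all tested genes. A match is a run of letters and no measured binding site.

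Most tested genes of the 2-cell families rose. Of 17 tested genes of the Zscan4, Tcstv and Zfp352 list, 13 were higher, 1 was lower and the median was 6.50 (log2), against 36.2% of all genes higher and a median of 0.38. Without PN3 replicate 2, or without the rRNA-rich libraries, 2 were lower. The list's summed level was 1832.5 CPM in L2C against 1035 CPM in PN3, so the list as a whole was not absent from the zygote. Tcstv1 had 200, 200 and 156 CPM in the L2C libraries, against 114, 52.2 and 108 CPM in the PN3 libraries. Within the list, Spz1, a testis transcription factor, had 38.8, 43.5 and 43.6 CPM in the L2C libraries, against no count in the PN3 libraries. The putative membrane protein Tmem92 had 107, 114 and 62.4 CPM in the L2C libraries, against 1.56, 0.846 and 1.62 CPM in the PN3 libraries. All 3 L2C libraries lay above the PN3 libraries for both genes. The zinc finger gene Zfp750 was the only one of the list that fell: it averaged 14.9 ± 2.26 CPM in L2C, against 384 ± 25.9 CPM in PN3. All 5 Usp17-like deubiquitinases rose, with a summed level of 667 CPM in L2C against 3.36 CPM in PN3. Usp17lb made up most of that sum, with 652, 666 and 254 CPM in the L2C libraries, against 1.27, 0.37 and 1.49 CPM in the PN3 libraries. All 5 Tdpoz genes, which encode BTB-domain adaptors, rose, with a summed level of 244 CPM in L2C against 0.313 CPM in PN3. Tdpoz4, with 142, 140.3 and 75.5 CPM in the L2C libraries, against no count in the PN3 libraries, was at least 2777-fold higher. The Trim43 genes encode ring-finger proteins of the embryo, and all 3 tested rose. Trim43a averaged 413 ± 61.4 CPM in L2C, against 0.0364 ± 0.063 CPM in PN3, and Trim43b averaged 567 ± 115 CPM in L2C, against 0.141 ± 0.146 CPM in PN3. Copies within these families are near-identical, and the sources used here do not say how reads that fit several copies were counted. Values of single members are therefore uncertain, as are those of the Obox, Pramel and Nlrp genes.

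Several families changed members between the stages. Of 7 tested Obox homeobox genes, 3 were higher and 4 lower, against 36.2% and 25.4% of all genes. Obox6 had 898, 944 and 388 CPM in the L2C libraries, against 0.364, 0.159 and 0.131 CPM in the PN3 libraries. Obox8 had 316, 332 and 181 CPM in the L2C libraries, against 0.146, 0 and 0 CPM in the PN3 libraries. Both were nearly absent from the zygote. Obox2, in contrast, had 60.3, 55.2 and 27 CPM in the L2C libraries, against 2590.4, 1182 and 2930.0 CPM in the PN3 libraries. Obox1, like Obox2 a gene of the oocyte's set, averaged 63.9 ± 10.7 CPM in L2C, against 1771 ± 615 CPM in PN3. Obox2, Obox1 and Obox7 fell by more than 16-fold, with log2 fold changes of -5.55, -4.79 and -4.40. Crxos, a homeobox gene of the same kind, averaged 1065 ± 233 CPM in L2C, against 0.256 ± 0.147 CPM in PN3 (log2 fold change 11.92, SE 0.47, edgeR adjusted p = 1.4e-08).

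In the ring-finger pair, Rfpl4b had 180.2, 176 and 108 CPM in the L2C libraries, against no count in the PN3 libraries. Its relative Rfpl4, of the oocyte, had 162, 176 and 119 CPM in the L2C libraries, against 5596, 2506 and 5520.4 CPM in the PN3 libraries. The libraries of the stages lay far apart in both genes, in opposite order. The Pramel and Oog genes, leucine-rich repeat genes of the germ line, went both ways: 9 of 21 were higher and 10 lower. Of all genes, 36.2% were higher and 25.4% lower. Pramel7 had 93, 103 and 89.2 CPM in the L2C libraries, against 0.0364, 0 and 0 CPM in the PN3 libraries, and Pramel6 averaged 116 ± 34 CPM in L2C, against 0.0583 ± 0.101 CPM in PN3. Among those that fell, C87499 averaged 39.8 ± 2.44 CPM in L2C, against 818 ± 66.2 CPM in PN3, and Oog1 averaged 95.7 ± 5.72 CPM in L2C, against 325 ± 32.1 CPM in PN3.

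The same change of members was seen in the proteins that hold poly(A) tails. Pabpc1, the main cytoplasmic poly(A)-binding protein of somatic cells, had 182, 192 and 240.0 CPM in the L2C libraries, against 3.56, 6.56 and 2.19 CPM in the PN3 libraries. Its oocyte form Pabpc1l had 9.07, 7.45 and 7.7 CPM in the L2C libraries, against 121, 125 and 116 CPM in the PN3 libraries. Thus the cytoplasmic pair moved in opposite directions, with log2 fold changes of 5.65 ± 0.42 and -3.90 ± 0.20 (± SE). The nuclear protein Pabpn1 had 249, 245 and 149 CPM in the L2C libraries, against 4.04, 3.07 and 2.62 CPM in the PN3 libraries. Its oocyte form Pabpn1l, an adaptor for maternal RNA decay, had 5.33, 5.04 and 1.76 CPM in the L2C libraries, against 163, 129 and 139 CPM in the PN3 libraries. The nuclear pair was opposite too, at 6.04 ± 0.42 and -5.15 ± 0.41, and the edgeR adjusted p of each of the 4 genes was at most 4.80e-07. These pairs of relatives were picked after their values had been seen. Of 33 tested genes of poly(A) binding and polyadenylation, 13 were higher and 12 lower, against 36.2% and 25.4% of all genes. Clp1, a subunit of the 3′ cleavage machinery, averaged 208 ± 71.1 CPM in L2C, against 0.944 ± 0.229 CPM in PN3. Cpeb1, which recruits polyadenylation to stored RNA, averaged 19.6 ± 1.69 CPM in L2C, against 207 ± 40.4 CPM in PN3.

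Of 26 tested genes of deadenylation, 8 were higher and 10 lower, against 36.2% and 25.4% of all genes, with a median of 0.04 but a summed level of 2450 CPM in L2C against 8527 CPM in PN3. Btg4, the meiotic adaptor that brings CCR4-NOT to maternal RNA, had 745, 756 and 541 CPM in the L2C libraries, against 6431, 2732 and 6778 CPM in the PN3 libraries. It made up the largest part of the sum in both stages and fell by 2.96 on the log2 scale. Cnot6l, a CCR4-NOT nuclease subunit with a role in the oocyte, averaged 89.3 ± 6.3 CPM in L2C, against 454 ± 64.3 CPM in PN3 (log2 fold change -2.35, SE 0.19, edgeR adjusted p = 5.24e-07). Cnot11, another subunit, averaged 7.05 ± 1.66 CPM in L2C, against 102 ± 21.1 CPM in PN3. The related adaptor genes Btg3 and Btg1 rose, at 17.6 ± 5.64 CPM in L2C against 0.781 ± 0.365 CPM in PN3 and 50.3 ± 4.96 CPM in L2C against 8.01 ± 3.11 CPM in PN3. Pnldc1, a nuclease related to PARN, averaged 54.4 ± 5.02 CPM in L2C, against 5.28 ± 1.44 CPM in PN3. Pan2 itself fell in the WT embryos: it had 62.2, 60.1 and 69.1 CPM in the L2C libraries, against 189, 173 and 159.6 CPM in the PN3 libraries (log2 fold change -1.44, SE 0.41, edgeR adjusted p = 0.00798). Of 41 genes of decapping, uridylation and exosome, 10 were higher and 13 lower, against 36.2% and 25.4% of all genes. The uridylyltransferase Tut4 averaged 19.2 ± 2.15 CPM in L2C, against 0.397 ± 0.295 CPM in PN3. The decapping factor Dcp1a averaged 53.2 ± 10.04 CPM in L2C, against 394 ± 57.5 CPM in PN3, and the decapping scaffold Edc4 averaged 11 ± 5.75 CPM in L2C, against 194 ± 67.8 CPM in PN3. The medians of the lists of poly(A) binding, deadenylation and decapping changed sign between settings of scaling, filter and libraries.

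**Figure D3:**
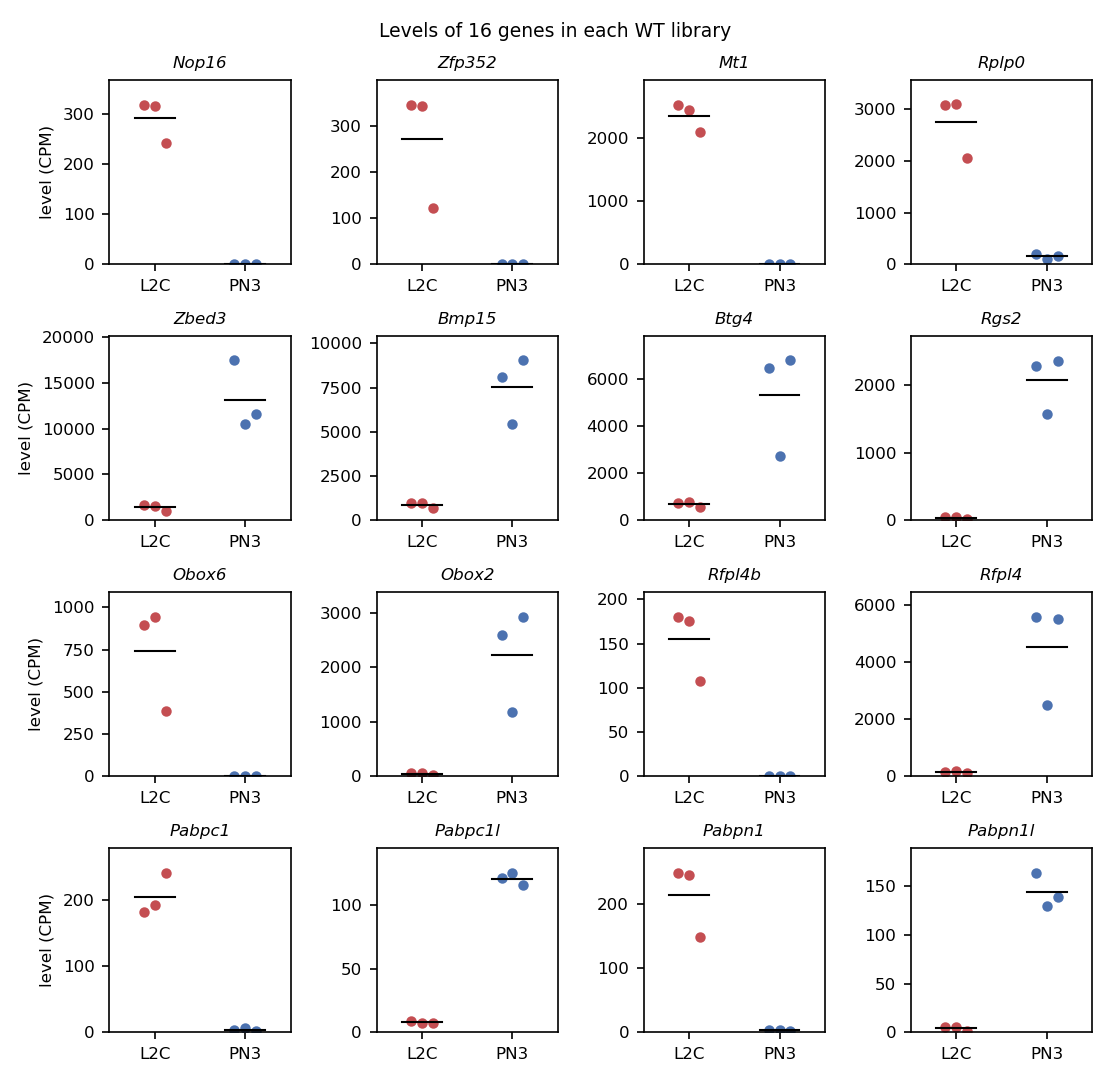
Level (CPM) of 16 genes in each WT library, the 3 L2C libraries left (red) and the 3 PN3 libraries right (blue), with the mean as a bar; each panel has its own axis, which starts at 0. The lower panels pair a gene that rose (Obox6, Rfpl4b, Pabpc1, Pabpn1) with a relative that fell (Obox2, Rfpl4, Pabpc1l, Pabpn1l). The 16 genes were chosen with their values known, so the lack of overlap in every panel follows from that choice. Of all tested genes, 70.3% show no overlap.

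Many abundant maternal RNAs fell far. Zbed3 (chr13:95323612-95337841, plus strand, 4 exon blocks), which encodes a zinc finger protein linked to the maternal complex beneath the egg surface, lost the most CPM. It had 1604, 1569 and 998 CPM in the L2C libraries, against 17460.0, 10455 and 11612 CPM in the PN3 libraries (log2 fold change -3.24, SE 0.48, edgeR adjusted p = 7.98e-05). Bmp15, an oocyte growth factor, had 968, 988 and 686 CPM in the L2C libraries, against 8118, 5418 and 9049.6 CPM in the PN3 libraries. Bcl2l10, the oocyte's member of the BCL2 family, had 566, 568 and 349.7 CPM in the L2C libraries, against 8476, 5239 and 6691 CPM in the PN3 libraries. The L2C libraries of all 3 genes lay far below the PN3 libraries. Spin1, a chromatin reader, averaged 1612 ± 288 CPM in L2C, against 7055 ± 2062 CPM in PN3. Skp1a, of the SCF ubiquitin ligase, averaged 732 ± 164 CPM in L2C, against 5018 ± 715 CPM in PN3. The AKT cofactor Tcl1 averaged 3472 ± 1323 CPM in L2C, against 8782 ± 2729.8 CPM in PN3, a call that was lost with library totals (edgeR adjusted p = 0.0912). Btg4 and Rfpl4, described above, complete the 8 largest losses in CPM.

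By fold change, Rgs2, a regulator of G protein signalling in the egg, was among the 12 lowest. It had 45.4, 45.9 and 16.1 CPM in the L2C libraries, against 2288, 1571 and 2360.4 CPM in the PN3 libraries (log2 fold change -5.85, SE 0.45, edgeR adjusted p = 3.92e-07). Ccdc3 averaged 2.25 ± 0.447 CPM in L2C, against 147 ± 17.7 CPM in PN3. The receptor gene Gpr1 averaged 6.96 ± 1.01 CPM in L2C, against 294 ± 70.4 CPM in PN3. Casp8, an initiator caspase, averaged 1.34 ± 0.36 CPM in L2C, against 59.1 ± 28 CPM in PN3, and the prefoldin subunit Pfdn4 averaged 9.66 ± 1.85 CPM in L2C, against 390.0 ± 127 CPM in PN3. Of the 12 genes of lowest fold, 5 had at least 1 L2C library at 0 counts: Zc4h2, Myzap, Cldn8, Pdzk1 and Speer4f2, which had 1 count in the L2C group.

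The ends of 4 RNAs that fell are given next, because TTTTAT, the core of the cytoplasmic polyadenylation element read by CPEB1, sits beside the AATAAA signal in them. Each line is a window of 30 bases near the 3′ end of a GENCODE M21 transcript, 5′ to 3′ on the gene's strand, with TTTTAT and the AATAAA nearest to it in capitals. On build mm10 they lie at chr13:95337804-95337833 for Zbed3, chr11:53437858-53437887 for Gdf9 and chr2:118641547-118641576 for the spindle checkpoint kinase Bub1b, all on the plus strand, and at chr11:70943084-70943113 on the minus strand for the nucleoporin Nup88.
Zbed3: actccttttttttttttAATAAAcTTTTAT
Gdf9: tgctgtggTTTTATgtgacggaagAATAAA
Bub1b: ctctcctttcactgtgtaTTTTATAATAAA
Nup88: tattcaaataaagtttgAATAAAtTTTTAT
The shares that follow cover protein-coding genes with a 3′ UTR of at least 100 bases. These were 3711 that rose by at least 4-fold, 1842 that fell by at least 4-fold and 14372 of all tested. TTTTAT is within the last 100 bases of the 3′ UTR in 12.3%, 16.9% and 14.5% of these classes. The AU-rich pentamer ATTTA is there in 20.5%, 24.4% and 22.6%. An AATAAA or ATTAAA signal, searched for only in a shorter stretch at the 3′ end, is in 77.0%, 77.7% and 77.7%. These shares describe the annotated ends, and no test was made of them.

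Genes of the oocyte lists mostly fell. Of 14 genes of the zona pellucida and oocyte growth factors, 13 were lower and 1 was higher, against 25.4% of all genes lower. The list's median was -2.13 (log2), and its summed level was 3219 CPM in L2C against 15427 CPM in PN3. Gdf9, partner of Bmp15, had 142, 139 and 174 CPM in the L2C libraries, against 908, 1171 and 834 CPM in the PN3 libraries. The oocyte transcription factor Nobox averaged 12.7 ± 3.63 CPM in L2C, against 245 ± 14.7 CPM in PN3. The gene that rose, Sohlh1, a factor of early germ cells, was low in both stages, at 7.45 ± 1.99 CPM in L2C against 0.131 ± 0.115 CPM in PN3. Of 8 genes of the subcortical maternal complex, a scaffold under the egg membrane, 7 were lower and 1 was not called, with a median of -3.27. The complex summed to 1974 CPM in L2C against 20611 CPM in PN3. Padi6 had 144, 146 and 148 CPM in the L2C libraries, against 1986, 1819 and 1762 CPM in the PN3 libraries. Ooep had 51.7, 57 and 31 CPM in the L2C libraries, against 871, 821 and 995 CPM in the PN3 libraries. Nlrp5 had 146, 149.7 and 103 CPM in the L2C libraries, against 1204, 1195 and 1528 CPM in the PN3 libraries. No L2C library came near a PN3 library in these 3 genes. Of 9 tested oocyte Nlrp genes, 8 were lower, and Nlrp4a averaged 78.8 ± 19.5 CPM in L2C, against 1674 ± 301 CPM in PN3.

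Of 18 genes of mRNA storage in the oocyte, 12 were lower and 2 higher, against 25.4% of all genes lower and 36.2% higher. Zar1, which binds stored RNA, averaged 20.5 ± 3.995 CPM in L2C, against 459 ± 126 CPM in PN3. Meioc, an RNA regulator of meiotic cells, rose, at 29.3 ± 0.911 CPM in L2C against 1.05 ± 0.379 CPM in PN3. Ybx1, a general RNA-binding protein, rose by less, at 259 ± 28.6 CPM in L2C against 143 ± 21.4 CPM in PN3. Of 29 genes of meiosis and egg activation, 18 were lower and 3 higher. The calcium-dependent kinase Camk2g averaged 80.4 ± 6.59 CPM in L2C, against 494 ± 45.3 CPM in PN3. Pde3a, the phosphodiesterase that controls meiotic arrest, averaged 21.1 ± 3.76 CPM in L2C, against 158 ± 19.9 CPM in PN3. The meiotic cohesin gene Smc1b rose, at 69 ± 9.99 CPM in L2C against 36.2 ± 2.96 CPM in PN3. The egg surface tetraspanin Cd9 had 71, 75.5 and 36.2 CPM in the L2C libraries, against 29.2, 20.8 and 40.01 CPM in the PN3 libraries. Its groups overlapped, and its call was lost without PN3 replicate 1 or 2 or L2C replicate 1 or 2, with adjusted p-values of 0.0782 to 0.115 by edgeR.

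Ribosomal protein genes rose nearly as a whole. Of 84, 80 were higher, 1 was lower and 3 were not called, with a median of 3.56 (log2). Of all genes, 36.2% were higher and 25.4% lower, with a median of 0.38. Their summed level was 31631 ± 2705 CPM in L2C against 4532 ± 712 CPM in PN3. Under all 20 settings between 79 and 81 were higher, with a median of 3.35 to 3.89. Rplp0, of the ribosomal stalk, had 3091, 3096 and 2056 CPM in the L2C libraries, against 186, 98.7 and 162 CPM in the PN3 libraries (log2 fold change 4.20, SE 0.40, edgeR adjusted p = 2.11e-06). Rpl10a had 321, 319 and 330.3 CPM in the L2C libraries, against 7.2, 5.6 and 6.52 CPM in the PN3 libraries. Its 3 libraries of a stage lay close together. The gene that fell, Rps15a, averaged 413 ± 19.4 CPM in L2C, against 704 ± 154 CPM in PN3 (log2 fold change -0.77, SE 0.28, edgeR adjusted p = 0.0315); its call was lost with DESeq2 size factors, where the adjusted p was 0.123 by edgeR, and without L2C replicate 1, L2C replicate 3 or PN3 replicate 2 (adjusted p 0.0513 to 0.0581). Reads of ribosomal protein genes can also fit their many processed copies, and the sources used here do not say how such reads were counted.

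Genes that build ribosomes mostly rose as well. Of 87 genes of ribosome biogenesis, 62 were higher and 11 lower, with a median of 1.39, against 36.2% and 25.4% of all genes. Nhp2, a subunit of the particles that modify ribosomal RNA, had 430.4, 450.4 and 386 CPM in the L2C libraries, against 15.2, 19.5 and 19.6 CPM in the PN3 libraries (log2 fold change 4.54, SE 0.27, edgeR adjusted p = 6.41e-08). Polr1c, shared by RNA polymerases I and III, averaged 207 ± 26.5 CPM in L2C, against 5.95 ± 1.67 CPM in PN3. Against that direction, the assembly factor Bms1 averaged 30.6 ± 0.298 CPM in L2C, against 320.2 ± 121 CPM in PN3. Nol10 and Mphosph10, of the processing machinery, fell by less, at log2 fold changes of -1.75 ± 0.23 and -1.77 ± 0.25 (± SE). The promoter core CCGGAAG, marked in Nhp2 above, is in 35.1% of the 74 promoters of ribosomal protein genes and 37.2% of the 86 of ribosome biogenesis genes. It is in 14.1% of the promoters of all tested genes, 12.5% of those of genes that rose by at least 4-fold, 12.3% of those that fell by as much and 8.86% of all in the RefSeq table. Gabpa, an ETS factor whose family binds that core, itself had 243, 254 and 141 CPM in the L2C libraries, against 0.0728, 0.212 and 0.262 CPM in the PN3 libraries. No PN3 library reached 1 CPM of Gabpa.

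Of 50 RNA polymerase and general factor genes, 28 were higher and 11 lower, against 36.2% and 25.4% of all genes, with a median of 0.84. Polr2h, shared by the nuclear RNA polymerases, averaged 198 ± 7.49 CPM in L2C, against 12.8 ± 0.62 CPM in PN3. Gtf2b, the initiation factor TFIIB, fell, at 59.9 ± 8.28 CPM in L2C against 472 ± 231 CPM in PN3. Of 53 translation factors, 26 were higher and 11 lower, with a median of 0.73. The cap-binding relatives moved apart: Eif4e2 averaged 137 ± 28.8 CPM in L2C, against 14.3 ± 1.1 CPM in PN3, and Eif4e3 averaged 26.6 ± 7.13 CPM in L2C, against 244 ± 57.9 CPM in PN3. Eif3a, the scaffold of initiation factor eIF3, averaged 142 ± 14.3 CPM in L2C, against 28.1 ± 4.5 CPM in PN3. Eef2k, the kinase of elongation factor eEF2, averaged 39 ± 3.597 CPM in L2C, against 325 ± 75.3 CPM in PN3.

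Of 40 transcription factors linked to genome activation 23 were higher and 7 lower, with a median of 1.29, against 36.2% of all genes higher and 25.4% lower. With DESeq2, DESeq2 size factors or library totals 3 were lower. Dppa4, a chromatin-binding factor of early embryos, had 436, 459 and 296 CPM in the L2C libraries, against 5.35, 3.33 and 8.66 CPM in the PN3 libraries. The transcription factor Klf5 had 55.3, 62.2 and 100.1 CPM in the L2C libraries, against 0.546, 0.529 and 1.14 CPM in the PN3 libraries. Both were low in every PN3 library. Its relative Klf17 had 270.0, 263 and 263 CPM in the L2C libraries, against 938, 1003 and 673 CPM in the PN3 libraries, a fall by 1.71 on the log2 scale. Sall4, a zinc finger factor of the early embryo, averaged 132 ± 14 CPM in L2C, against 352 ± 83 CPM in PN3. Of 24 pluripotency and first lineage genes, 13 were higher and 4 lower. Dppa5a, an RNA-binding protein of pluripotent cells, had 940.2, 985 and 1000.3 CPM in the L2C libraries, against 41.7, 43.4 and 47.6 CPM in the PN3 libraries (log2 fold change 4.46, SE 0.21, edgeR adjusted p = 1.63e-08). The growth factor gene Fgf4 had 41.4, 40.9 and 55.3 CPM in the L2C libraries, against no count in the PN3 libraries. The pluripotency factor Pou5f1 fell, at 20.6 ± 2.45 CPM in L2C against 51.3 ± 3.87 CPM in PN3. Gata3, a trophoblast factor, also fell, at 5.36 ± 1.72 CPM in L2C against 76.7 ± 14.6 CPM in PN3.

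Mitochondrial RNA made up a larger share of the L2C libraries. Of 13 mitochondrial mRNAs, 10 were higher and none lower, with a median of 1.67, against 36.2% and 25.4% of all genes. Under the 20 settings between 7 and 12 were higher and none was lower. Their summed level was 33769 CPM in L2C against 11112 CPM in PN3. Cytochrome b (mt-Cytb) had 12577, 12984 and 8271 CPM in the L2C libraries, against 3408, 2207 and 4232 CPM in the PN3 libraries. The complex I subunit mt-Nd1 had 6743, 6734 and 5689.7 CPM in the L2C libraries, against 1833, 1562 and 2622 CPM in the PN3 libraries. The stages did not overlap for either. Of the 8 largest gains in CPM, 6 were mitochondrial: mt-Rnr2, mt-Cytb, mt-Nd1, mt-Co1, mt-Nd4 and mt-Nd2. The other pair were Rplp0 and Mt1, a metal-binding metallothionein. Mt1 had 2527, 2442 and 2098 CPM in the L2C libraries, against 0.546, 2.22 and 1.44 CPM in the PN3 libraries (log2 fold change 10.74, SE 0.68, edgeR adjusted p = 9.81e-08). For mt-Co1 the call was lost when L2C replicates 1 and 2 were summed (adjusted p = 0.0504 by edgeR).

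Of 77 nuclear genes of oxidative phosphorylation, 46 were higher and 16 lower, against 36.2% and 25.4% of all genes, with a median of 1.09. Atp5g1 and Atp5g2 encode the same ring subunit of ATP synthase and moved in opposite directions. Atp5g1 averaged 647 ± 42.9 CPM in L2C, against 52.1 ± 3.96 CPM in PN3, and Atp5g2 averaged 20.9 ± 1.47 CPM in L2C, against 77.7 ± 9.78 CPM in PN3. Cox7c, of complex IV, averaged 182 ± 6.83 CPM in L2C, against 4.11 ± 1.64 CPM in PN3. Ndufa10 of complex I and Sdha of complex II fell, at 17.1 ± 1.9 CPM in L2C against 145 ± 17.9 CPM in PN3 and 17.3 ± 0.292 CPM in L2C against 142 ± 42.3 CPM in PN3. Of 40 genes of pyruvate and glucose metabolism, 12 were higher and 9 lower, against 36.2% and 25.4% of all genes. The list's median changed sign between settings. Mpc2, of the mitochondrial pyruvate carrier, averaged 246 ± 16.1 CPM in L2C, against 15.4 ± 1.48 CPM in PN3. Lactate dehydrogenase Ldha averaged 35.3 ± 11.4 CPM in L2C, against 0.531 ± 0.168 CPM in PN3. G6pdx, the entry enzyme of the pentose phosphate pathway, averaged 149 ± 25.6 CPM in L2C, against 679 ± 61.1 CPM in PN3.

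Of 39 genes of lysosome and autophagy, 19 were higher and 6 lower, with a median of 1.19, against 36.2% of all genes higher and 25.4% lower. Ctsl, a lysosomal protease, had 861, 901 and 432 CPM in the L2C libraries, against 0.364, 0.582 and 2.23 CPM in the PN3 libraries (log2 fold change 9.43, SE 0.68, edgeR adjusted p = 2.37e-07). Atg5, which builds the autophagy conjugation system, fell, at 86.3 ± 3.41 CPM in L2C against 504 ± 82.4 CPM in PN3. Of 30 genes of p53 and apoptosis, 16 were higher and 5 lower, with a median of 1.34. Without the rRNA-rich libraries 10 genes of the first list and 8 of the second were lower. The p53 target and cell cycle inhibitor Cdkn1a averaged 52.1 ± 13.2 CPM in L2C, against 3.16 ± 1.079 CPM in PN3. Bcl2l11, a death-promoting BCL2 relative, averaged 149.6 ± 43.1 CPM in L2C, against 19.7 ± 3.51 CPM in PN3. The protective member Bcl2l1 fell with Bcl2l10, at 84.7 ± 11.1 CPM in L2C against 213 ± 49.8 CPM in PN3.

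Chromatin genes changed by member. Of 19 genes of DNA methylation and maternal reprogramming, 3 were higher and 11 lower, and the median was -0.71. Of all genes, 36.2% were higher and 25.4% lower. Dnmt1, the maintenance methyltransferase, had 46.7, 45.8 and 63.7 CPM in the L2C libraries, against 726, 737 and 856 CPM in the PN3 libraries (log2 fold change -3.89, SE 0.22, edgeR adjusted p = 5.35e-08). The de novo enzyme Dnmt3a had 132, 131 and 124 CPM in the L2C libraries, against 1007, 1654 and 882 CPM in the PN3 libraries. No L2C library reached the PN3 range of either enzyme. Tet1, which oxidises methylcytosine, rose, at 50.9 ± 8.64 CPM in L2C against 5.66 ± 1.58 CPM in PN3. Its oocyte relative Tet3 fell, at 116 ± 36.7 CPM in L2C against 1015 ± 423 CPM in PN3. Of 59 chromatin regulators, 15 were higher and 24 lower, and the median was -0.59. The histone demethylase Kdm5b had 299, 287 and 347 CPM in the L2C libraries, against 8.15, 7.03 and 6.91 CPM in the PN3 libraries. The histone variant gene H2az1 averaged 1170.1 ± 215 CPM in L2C, against 41.5 ± 15.3 CPM in PN3, and the deacetylase Hdac1 averaged 134 ± 30.5 CPM in L2C, against 3.63 ± 1.46 CPM in PN3. The Polycomb genes Ezh2 and Eed fell, at 119 ± 1.5002 CPM in L2C against 537 ± 22.5 CPM in PN3 and 47.9 ± 2.64 CPM in L2C against 260.4 ± 31.5 CPM in PN3. Of 32 tested replication-dependent histone genes, whose RNA normally ends without a poly(A) tail, 12 were higher and 5 lower. This compares with 36.2% and 25.4% of all genes, and the list's median changed sign between settings.

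Cell cycle genes moved in both directions. Of 32 cyclins and cell cycle kinases, 15 were higher and 9 lower, against 36.2% and 25.4% of all genes, with a median of 0.74. Cyclin E1 (Ccne1), which drives entry into S phase, had 281, 304 and 272 CPM in the L2C libraries, against 8.4, 2.22 and 8.18 CPM in the PN3 libraries (log2 fold change 5.50, SE 0.44, edgeR adjusted p = 5.35e-07). Chek1, the replication checkpoint kinase, had 149.6, 142 and 104 CPM in the L2C libraries, against 1220.2, 728 and 1343 CPM in the PN3 libraries. Cdc25c, a phosphatase that starts mitosis, averaged 78 ± 7.94 CPM in L2C, against 4.01 ± 1.69 CPM in PN3. Of 30 genes of the spindle checkpoint and the anaphase-promoting complex, 8 were higher and 12 lower, with a median that changed sign between settings. Mad2l1bp, which silences the spindle checkpoint, averaged 807 ± 184 CPM in L2C, against 61 ± 12.4 CPM in PN3. The ubiquitin-conjugating enzyme Ube2c averaged 800.1 ± 221 CPM in L2C, against 91.8 ± 20.4 CPM in PN3. Bub1b fell, at 26.5 ± 0.724 CPM in L2C against 223 ± 52.8 CPM in PN3. Fbxo43, the inhibitor that holds the egg in metaphase, fell as well, at 19.8 ± 7.55 CPM in L2C against 169 ± 28.1 CPM in PN3. Of 46 DNA replication genes, 10 were higher and 17 lower, against 36.2% and 25.4% of all genes; 6 were higher without L2C replicate 2, and 6 with L2C replicates 1 and 2 summed. Subunits of the single-strand binding complex moved apart: Rpa2 averaged 201 ± 28.7 CPM in L2C, against 32.7 ± 9.83 CPM in PN3, and Rpa1 averaged 14.3 ± 2.54 CPM in L2C, against 113 ± 11.5 CPM in PN3.

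Other large machines were mixed. Of 49 proteasome genes 21 were higher and 16 lower, and of 53 spliceosome genes 19 were higher and 21 lower. Of 50 nuclear pore and transport genes 17 were higher and 19 lower, and of 36 chaperones 14 were higher and 10 lower (17 lower without the rRNA-rich libraries). Over all tested genes, 36.2% were higher and 25.4% lower. The medians of these 4 lists, 0.19, -0.31, -0.14 and -0.16, changed sign between settings. Single members nevertheless moved far. Snrpc, of the U1 splicing particle, averaged 697 ± 156 CPM in L2C, against 27.2 ± 9.09 CPM in PN3. The importin gene Kpna1 had 161, 165 and 138 CPM in the L2C libraries, against 0.109, 0 and 0.131 CPM in the PN3 libraries. Hsp90aa1, the inducible heat shock protein 90, had 199, 200.2 and 218 CPM in the L2C libraries, against 1346, 2751 and 1541 CPM in the PN3 libraries. The nucleoporin Nup88 fell, at 51.5 ± 6.96 CPM in L2C against 449.6 ± 71.3 CPM in PN3.

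**Figure D4:**
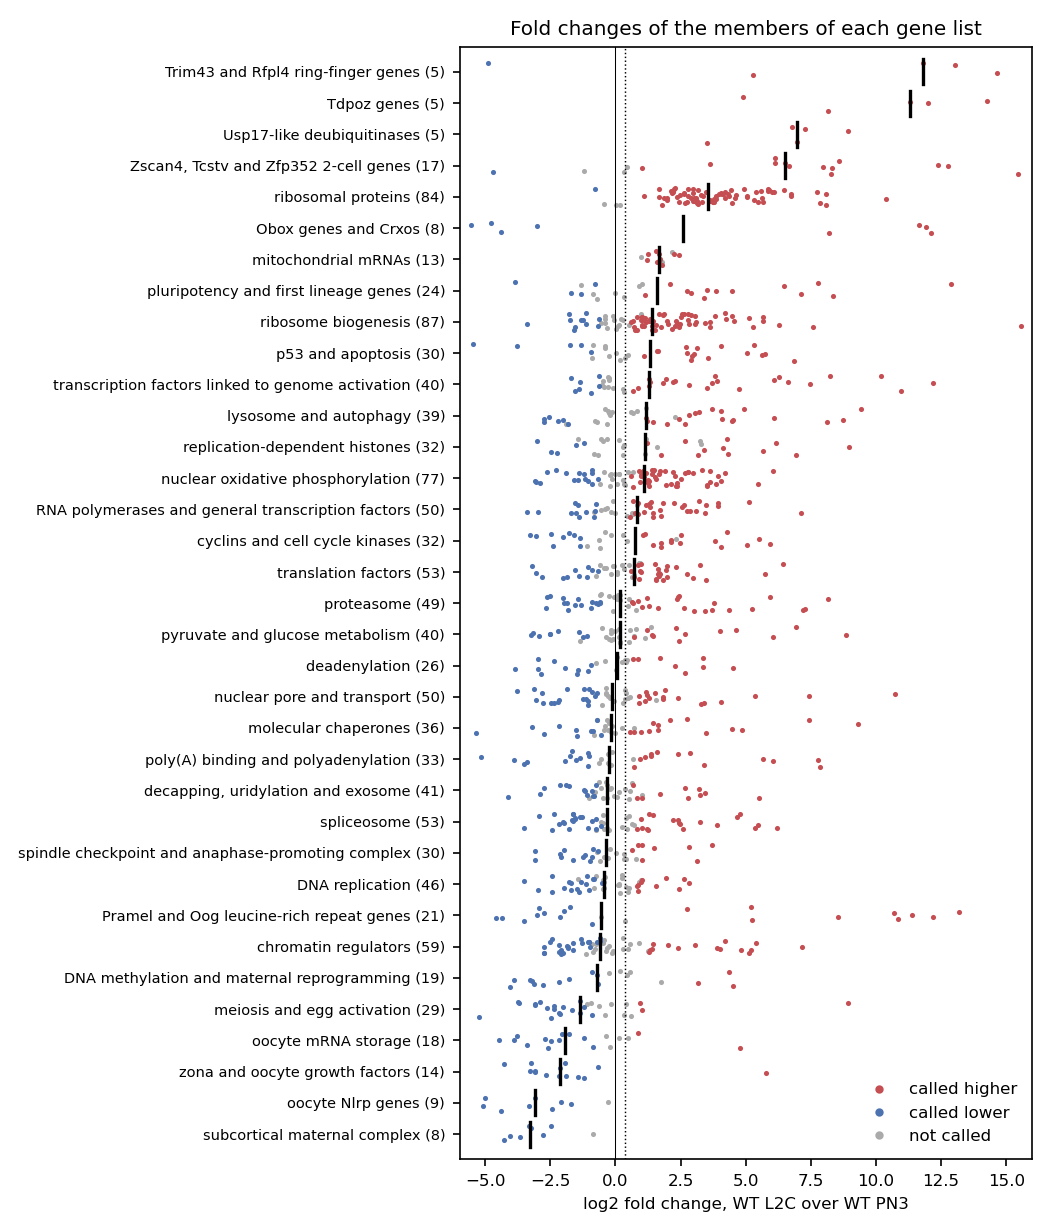
Fold change L2C over PN3 (log2, horizontal) of every tested member of each gene list, 1 point per gene, with a black bar at the list's median and a dotted line at the median of all genes, 0.38. Lists of the 2-cell families and ribosomal proteins lie to the right, oocyte lists to the left, and many housekeeping lists spread to both sides.

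Markers of other cells were mostly low. Of 16 granulosa and cumulus markers 9 were tested, of which 4 were higher and 1 was lower, against 36.2% and 25.4% of all genes. Fshr and Inha had no count in the L2C libraries and Amh had 3 counts in all. Tnfaip6, a cumulus matrix gene, was higher, at 9.58 ± 1.71 CPM in L2C against 0.181 ± 0.228 CPM in PN3, and so was Foxl2, a granulosa transcription factor, at 1.68 ± 0.369 CPM in L2C against 0.141 ± 0.244 CPM in PN3. The summed level of all 16 was 57.6 ± 6.39 CPM in L2C against 32.8 ± 3.24 CPM in PN3. In L2C it came mainly from Amhr2, at 40.7 ± 7.62 CPM in L2C against no count in PN3, and in PN3 from Cyp19a1, at 1.62 ± 0.848 CPM in L2C against 28.6 ± 7.88 CPM in PN3. Of 15 markers of oviduct, stroma and blood 10 were tested, of which 4 were higher and 1 was lower (none lower without PN3 replicate 3), and all 15 summed to 277 ± 5.47 CPM in L2C against 35.2 ± 11.1 CPM in PN3. Epcam, a gene also used by early embryos, averaged 153 ± 10.3 CPM in L2C, against 1.4 ± 0.527 CPM in PN3. The globin gene Hba-a1 averaged 71.1 ± 14.1 CPM in L2C, against 0.0146 ± 0.0252 CPM in PN3, while Hbb-bs, its partner in blood, had 2 counts in L2C. Lyz2, a gene of myeloid cells, had 5.64, 4.67 and 58.4 CPM in the L2C libraries, against no count in the PN3 libraries, so L2C replicate 3 stood above its group. Of 13 sperm markers 9 were tested, of which 5 were higher and 2 lower (4 lower without the rRNA-rich libraries), and all 13 summed to 99.99 CPM in L2C and 109 CPM in PN3. The protamine gene Prm2 had 144 counts in L2C against 795 counts in PN3, and Tnp1, a transition protein gene, 43 counts in L2C and none in PN3. In such libraries fewer cells of a type and less RNA per cell cannot be told apart, and the part of other cells in the results was not tested.

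Genes that rose differed in build from genes that fell. Among protein-coding genes changed by at least 4-fold, the median exonic length was 3249.5 bases for those that rose and 4177 bases for those that fell. It was 4194 bases over all tested protein-coding genes. Their median span in the genome was 13749 bases for those that rose and 30175 bases for those that fell, against 23549 bases over all. The median coding length was 1155 bases for those that rose, 1428 bases for those that fell and 1380 bases over all. The median 3′ UTR was 649, 849 and 856 bases in the same classes, and the GC content at the third codon position was 63.3%, 58.0% and 60.5%. Counting genes of every type, those that rose were less often protein coding, 65.2% against 76.5% of those that fell. They were more often pseudogenes, 14.1% against 5.52%. These are descriptions with no test.

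The features did not follow the fold change in a straight line. Tested protein-coding genes were divided into 10 bins of equal number by fold change. The lowest bin, with a median fold change of -3.06, had a median 3′ UTR of 803 bases. Bin 4 had 1056.5 bases, and the highest bin, with a median fold change of 7.45, had 549 bases. CpG content of the promoter, as observed over expected, was 0.638, 0.765 and 0.475 in the same 3 bins. It was highest, 0.787, in bin 6, where genes changed little. Length, GC content and level can all affect how an oligo(dT)-primed library is counted, and their part in these values was not tested.

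**Figure D5:**
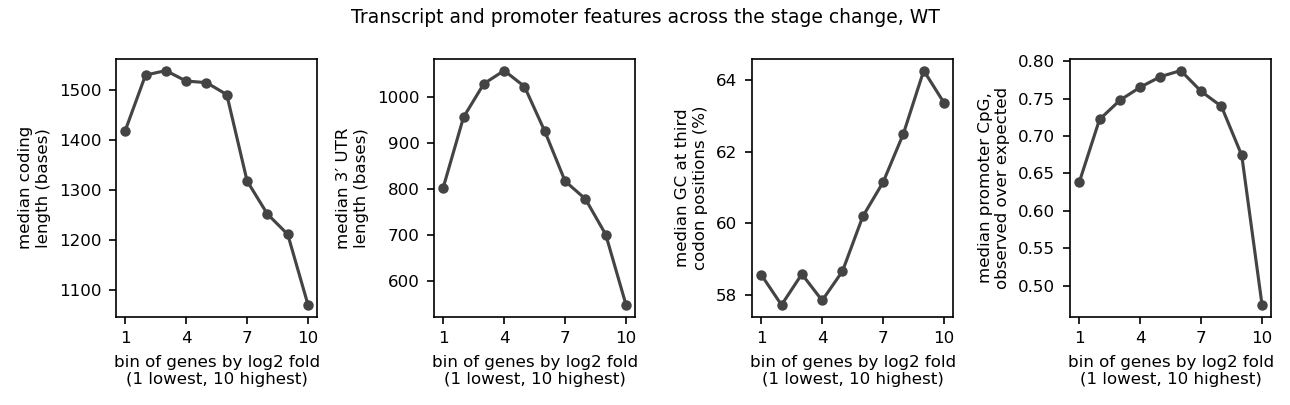
Medians over 10 bins of the tested protein-coding genes, ordered by log2 fold change L2C over PN3 (bin 1 lowest, bin 10 highest), of coding length and 3′ UTR length in bases, GC content at the third codon position in percent, and promoter CpG observed over expected. The 3′ UTR is shortest in the highest bin, and promoter CpG is highest in bin 6 and lowest in bin 10.

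The genes that rose by at least 4-fold were also divided by their level in the zygote. The 4886 with under 1 CPM in PN3 had a median promoter CpG of 0.498 and CCGGAAG in 7.86% of promoters, and 57.0% of them were protein coding. The 1496 with at least 1 CPM in PN3 had a median promoter CpG of 0.791 and CCGGAAG in 22.7% of promoters, and 92.1% were protein coding. The 1692 of the first group that had no count in PN3 had a median promoter CpG of 0.315 and CCGGAAG in 3.66% of promoters. At high levels, the 464 genes of at least 100 CPM in L2C that rose by at least 4-fold had a median coding length of 733.5 bases. The 616 genes of at least 100 CPM in PN3 that fell by at least 4-fold had one of 1437 bases.

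The share of genes that rose also varied by chromosome. Over all tested genes, 30.2% rose by at least 4-fold. Apart from the Y, the share of tested genes that rose by at least 4-fold was highest on the X, at 40.1% of 786 genes. Chromosomes 11, 7 and 17 followed with 35.2%, 35.0% and 34.0%, and chromosome 1 was lowest of the autosomes with 25.04%. On the Y, 12 of 16 tested genes rose by at least 4-fold. Eif2s3y, a translation factor gene of the Y, had 11.4, 10.9 and 5.84 CPM in the L2C libraries, against no count in the PN3 libraries. Uty, a relative of histone demethylases, had 12.6, 9.67 and 9.2 CPM in the L2C libraries, against 0.0364, 0.159 and 0 CPM in the PN3 libraries.

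In embryos without maternal Pan2 the same stage change was compared by the difference of the WT and KO fold changes, each L2C over PN3. The WT transition had 13040 genes called and the KO transition 11334 (53.6%); 9336 were called in the same direction in both and 83 in opposite directions. The difference itself was called for 1046 genes (4.94%), positive for 654 and negative for 392. The size of the fold change was smaller in KO for 771 of the 1046; these genes were chosen by the difference, so this count is a description. The median fold change of the ribosomal protein genes was 3.56 in WT and 2.30 in KO, with the difference called for 31 of 84. That of ribosome biogenesis genes was 1.39 in WT and 0.27 in KO, with 17 of 87 called. That of the subcortical maternal complex was -3.27 in WT and -2.47 in KO, with 2 of 8 called. Abt1, a basal transcription activator, had log2 fold changes of 4.32 in the WT embryos and 1.58 in the KO embryos (difference 2.74, SE 0.31, edgeR adjusted p = 0.00186). Taldo1, a pentose phosphate enzyme, had 2.44 in the WT embryos and -0.83 in the KO embryos (difference 3.27, SE 0.29, edgeR adjusted p = 0.000771). Dhx8, a splicing helicase, had 2.20 in the WT embryos and -0.42 in the KO embryos (difference 2.62, SE 0.27, edgeR adjusted p = 0.00161). Psenen, a gamma-secretase subunit, had -3.68 in the WT embryos and -0.50 in the KO embryos (difference -3.18, SE 0.41, edgeR adjusted p = 0.00312). The glutamate receptor gene Grm4 had -3.42 in the WT embryos and -1.06 in the KO embryos (difference -2.36, SE 0.26, edgeR adjusted p = 0.00186). In other genes the fall was larger in KO: Ecd had -1.01 in the WT embryos and -3.78 in the KO embryos (difference 2.76, SE 0.27, edgeR adjusted p = 0.00108), the replication factor Mcm10 -1.70 in the WT embryos and -3.38 in the KO embryos (difference 1.68, SE 0.25, edgeR adjusted p = 0.00525) and Bub1b -3.07 in the WT embryos and -4.47 in the KO embryos (difference 1.39, SE 0.30, edgeR adjusted p = 0.0218). The count of such differences depended on the libraries and the scaling. No gene passed the test when L2C replicates 1 and 2 of each genotype were summed to 1 sample, where 3049 had an unadjusted p under 0.05 by edgeR. Without the 4 libraries rich in ribosomal RNA 6057 passed. With upper quartile scaling 443 were positive and 695 negative.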

How the data were processed

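The authors deposited 1 table of raw counts per gene for 12 Smart-seq2 libraries; per the submitters' processing notes, reads were trimmed with Trim Galore 0.6.7, aligned to mm10 with STAR 2.7.10a and counted with featureCounts 2.0.2, and DESeq2 is named. The sources used here do not give the strand and multimapping settings. All 55291 genes were kept as deposited, and edgeR 4.0.16 in R 4.3.3 (filterByExpr, TMM scaling, 4 group means, robust quasi-likelihood F-test, Benjamini-Hochberg adjustment) tested 21160 of them; 34131 fell to the filter. SE is the fold change divided by the square root of F. The procedure was tested on simulated data. DESeq2 1.42.0, other scalings, filters and library sets were alternatives. Members and gene lists were chosen with earlier results of these data known. The genes named are Pan2, the 12 highest and 12 lowest folds with at least 10 CPM and no overlap, the 8 largest gains and losses in CPM, up to 3 of lowest adjusted p per list and direction, and 5 per direction of the WT and KO difference; Tet3, Dppa3, Zscan4d, Eif2s3y and Uty, and the pairing of relatives, were chosen after their values were seen. Only some of the genes that this rule names are described. Types and 3′ ends come from GENCODE M21, which held 99.59% of the genes, and promoters from RefSeq, found for 13749 of the tested genes. The labels state no pairing, and none was used. Deviations of same-numbered WT libraries correlated across stages at 0.345, -0.516 and -0.572. With 3 libraries per stage these values cannot exclude pairing. The summed level of a list covers all its genes in the table, tested or not.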

Additional observations from a re-analysis of the deposited data

Results flagged for a closer look

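The WT and KO transitions differed, by the test of the difference itself (edgeR adjusted p under 0.05), for 48 genes named in the report or by its rule. Each value is the WT minus the KO log2 fold change, L2C over PN3. Pan2 had -3.86, but it is the gene the KO mothers had lost, so its difference was built into the design. Other genes of the maternal, tail-trimming and oocyte lists had differences of -1.68 for Nobox, -1.49 for Ooep, -1.09 for Pabpc1l, -1.25 for Cnot4, -1.42 for Cnot6l, -1.08 for Oog1 and 2.08 for Btg1. Genes of the 2-cell, transcription factor and lineage lists had -1.44 for Zfp750, 1.96 for Usp17lc, -1.44 for Bhlhe40, 2.10 for Dppa5a and -1.51 for Gata3. Among genes of transcription, ribosomes and translation the difference was 1.01 for Polr2h, 1.78 for Polr1c, 1.13 for Gtf2h5, 2.16 for Rpl10a, 1.32 for Rpl12, 1.27 for Eif3a, 1.35 for Eif3g and -1.40 for Eef2k. Proteasome, splicing and folding genes had 2.71 for Psmb5, 2.20 for Psmb1, 2.08 for Snrnp25 and 1.56 for Pfdn6. Metabolic genes had 1.02 for Atp5g1, 1.22 for Mpc2, 3.27 for Taldo1 and -1.70 for G6pdx. Genes of chromatin, replication, division, transport, death and lysosomes had 1.92 for Kdm5b, 2.07 for Pole, 1.68 for Mcm10, -0.95 for Pold3, 1.39 for Bub1b, 2.24 for Ipo7, 2.67 for Pmaip1 and 1.43 for Ctsb. The other genes were Speer4f2 at -5.98, Zc4h2 at -3.59, Ecd at 2.76, Dhx8 at 2.62, Uspl1 at 2.29, Abt1 at 2.74, Grm4 at -2.36, Samd10 at -2.35, Gcc2 at -2.56, Car9 at -2.59 and Psenen at -3.18. As given in the report, no gene passed this test with L2C replicates 1 and 2 summed.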

How the results depend on the processing

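The count of genes called between WT L2C and PN3 stayed within 1.5 times of 13040 in every setting run, between 9414 with genes of a group mean of 5 CPM or more and 15933 without the 4 libraries rich in ribosomal RNA; leaving out 1 library at a time gave 11724 to 14112, and L2C replicates 1 and 2 summed 11220. The count of WT minus KO differences did not hold: against 1046 it was 619 with library totals, 2644 with DESeq2, 6057 without the rRNA-rich libraries, 0 with L2C replicates 1 and 2 summed and 259 to 1283 leaving out 1 library at a time, lowest without WT L2C replicate 2; the cause was not tested. With a replicate block 12570 WT stage calls and 641 differences remained in number. The labels do not say whether same-numbered libraries are paired. No named gene changed direction. Besides Rps15a, Cd9, Tcl1 and mt-Co1, Foxl2 lost its call (adjusted p = 0.0614 by edgeR, WT libraries only, replicates 1 and 2 summed). Depth limits low genes: 3 counts in 1 library are 0.109 to 0.159 CPM in the PN3 libraries.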

Other observations

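Some abundant zygote RNAs rose further. Of the 1982 genes with at least 100 CPM in PN3, 13 rose by at least 4-fold, all named here after their values were seen. Rplp0 is described above, and Rplp2 (1053 ± 83.5 CPM in L2C against 229 ± 127 CPM in PN3) and Rps16 (496 ± 34.5 CPM in L2C against 113 ± 10.3 CPM in PN3) are also ribosomal proteins. Cenpa, the centromere-specific histone H3, averaged 566 ± 75.4 CPM in L2C against 121 ± 16.6 CPM in PN3 (log2 fold change 2.23, SE 0.24, edgeR adjusted p = 5.42e-06). Snu13, a protein shared by the splicing and ribosomal RNA modification machineries, averaged 1038 ± 114 CPM in L2C against 191 ± 56.2 CPM in PN3. Calm2, a calmodulin gene, averaged 607 ± 192 CPM in L2C against 125 ± 28.5 CPM in PN3, and the iron-storage gene Fth1 717 ± 10.2 CPM in L2C against 139 ± 45.8 CPM in PN3. Odc1, the first enzyme of polyamine synthesis, had 519, 523 and 575 CPM in the L2C libraries, against 105, 148 and 106 CPM in the PN3 libraries. The others were Chchd2, Gid4, Jpt1, Mier3 and the mitochondrial-like gene model Gm28438, whose reads may be shared with the mitochondrial genome. The 13 genes were chosen by a rise of at least 4-fold, so the gap between the stages follows from that choice.

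Genes with no count in any L2C library were low in the zygote. Of the 52 with at least 1 CPM in PN3, the highest means were those of the T cell receptor segment Trav9-2, at 5.19 ± 3.15 CPM in PN3, and the homeobox gene Barx2, at 5.17 ± 2.58 CPM.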
